A study of Mus musculus with 6 samples.

Results

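The unfolded protein response and the integrated stress response were examined in the whole ovaries of mice at 9 dpp (days post partum), in cKO ovaries, whose granulosa cells carried a knockout of Srsf1, and in WT ovaries. Srsf1 encodes an SR family splicing factor, and granulosa cells are the somatic cells that enclose and support each oocyte. The study title names the role of SRSF1 in splicing and in granulosa cell survival. The 33 genes were taken by symbol from the authors' table of 47205 genes, and each matched a single row. They comprised 3 sensors (Ern1, Atf6 and Eif2ak3), 5 transcription factors (Xbp1, Atf4, Atf5, Ddit3 and Cebpb), 14 chaperones and folding enzymes, 3 genes of endoplasmic reticulum (ER)-associated degradation (Herpud1, Sel1l and Edem1) and 8 genes grouped here as Atf4 targets. All 33 passed the filter on low values, an average of 1 FPKM or more (fragments per kilobase of gene and per M fragments of a scaled library total, the authors' unit).

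There were 3 cKO and 3 WT libraries from ovary RNA. The sources used here do not give the Cre driver, the alleles, the strain or the number of animals behind each library. No label says whether the replicates were separate animals, and the p-values therefore describe the spread between these samples, which may be technical. Values of replicates are listed in the order 1, 2 and 3. Whole ovaries also hold oocytes, stroma, vessels and blood cells, and a gene's level in such a sample cannot tell fewer cells of a type apart from less RNA per cell.

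When unfolded proteins collect in the ER, the membrane sensors IRE1 (encoded by Ern1), ATF6 and PERK (encoded by Eif2ak3) are released from the chaperone BiP (encoded by Hspa5). IRE1 splices the Xbp1 mRNA, ATF6 is cut to give a transcription factor, and both outputs raise the genes of ER chaperones and of ER-associated degradation. PERK, like the kinases that sense amino acid shortage, viral RNA or heme shortage, phosphorylates the translation factor eIF2, which lowers protein synthesis in general while favouring translation of Atf4 mRNA. ATF4 and its partners then raise genes of amino acid supply and, under prolonged stress, Ddit3, which encodes the pro-apoptotic factor CHOP. Gene-level values show neither Xbp1 splicing nor the translation of Atf4 or the phosphorylation of eIF2.

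Some of the promoters of these genes hold sequence elements known from both responses. The ER stress response element (ERSE), the site read by ATF6 and XBP1 with NF-Y, was searched as CCAAT and CCACG with any 9 bases between them, on both strands of the RefSeq promoter windows (build GRCm38.p6, 250 bases before to 50 after each start). Windows were held for 30 of the 33 genes, and Atf6, Hyou1 and Manf had none. The full ERSE stood in the windows of 7 of the 30 (23.3%), namely Hspa5, Hsp90b1, Calr, Canx, Pdia6, Dnajc3 and Creld2, against 37 of 27025 genes (0.137%) in the whole promoter table. The shorter UPRE, TGACGTGG, was in none of the 30 and in 0.714% of all genes. The core of the amino acid response element bound by ATF4, TGATGNAA, was in 4 of the 30 (13.3%), namely Asns, Chac1, Herpud1 and Trib3, against 4.51% of all genes. A match is a string of letters and was not tested as a binding site. The genes were listed as known genes of these responses, so the shares describe the list and are not a test. The bases upstream of Hspa5 and Hsp90b1 are shown because these genes are the common readouts of the response, with the ERSE in capitals, 5′ to 3′ on the gene's strand (Hsp90b1 holds a copy on each strand):
Hspa5, chr2:34771840-34772089, plus strand: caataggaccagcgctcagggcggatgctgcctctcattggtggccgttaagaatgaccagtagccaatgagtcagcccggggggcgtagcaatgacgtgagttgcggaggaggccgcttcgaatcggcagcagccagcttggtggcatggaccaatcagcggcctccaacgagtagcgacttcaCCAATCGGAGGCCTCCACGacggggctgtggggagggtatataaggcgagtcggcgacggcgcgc
Hsp90b1, chr10:86705445-86705694, minus strand: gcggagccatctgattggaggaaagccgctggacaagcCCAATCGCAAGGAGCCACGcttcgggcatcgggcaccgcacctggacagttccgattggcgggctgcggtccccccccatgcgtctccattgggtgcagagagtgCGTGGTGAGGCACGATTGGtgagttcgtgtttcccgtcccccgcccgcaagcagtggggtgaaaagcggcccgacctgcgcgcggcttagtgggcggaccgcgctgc

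Shorter stretches show the element, again in capitals, in another chaperone gene and in 3 genes with the amino acid response core. The core of Chac1 and of Herpud1 lies on the opposite strand to the gene.
Pdia6, chr12:17266476-17266524, plus strand: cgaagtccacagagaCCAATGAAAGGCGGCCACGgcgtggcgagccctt
Asns, chr6:7693210-7693247, minus strand: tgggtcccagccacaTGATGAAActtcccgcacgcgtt
Chac1, chr2:119351034-119351071, plus strand: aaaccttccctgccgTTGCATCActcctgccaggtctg
Herpud1, chr8:94386302-94386339, plus strand: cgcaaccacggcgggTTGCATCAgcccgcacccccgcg

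Depth, as whole reads recovered from the FPKM values, was 18.6 to 18.7 M reads in the cKO libraries and 16.8 to 18.5 M in the WT libraries. Srsf1 measured 20.3, 26.9 and 21.4 FPKM in the cKO libraries, against 39.9, 49.6 and 46.3 FPKM in the WT libraries, with no overlap between the groups (log2 fold change -0.96 on the log2(FPKM + 1) scale, SE 0.134, limma adjusted p = 0.32). Of the 14714 genes tested, 3 passed an adjusted p of 0.05, none of them among the 33. Macrophage and leukocyte markers, all 12 of which were higher in cKO, summed to 87.1 to 365 FPKM in cKO and 48.3 to 63.1 FPKM in WT. Interferon response markers, also 12 of 12 higher, scored 3.54, 0.48 and 1.40 across the cKO libraries, against 0.04, -0.10 and 0.06 across the WT libraries. By this score cKO replicate 1 stood apart. Granulosa cell markers were lower in 9 of 11 tested, with a summed level of 818 to 935 FPKM in cKO and 970.0 to 1038 FPKM in WT. Surface epithelium markers, 10 of 10 higher, summed to 411 to 551 FPKM in cKO and 319 to 393 FPKM in WT, and oocyte markers to 2463 to 2574 FPKM in cKO and 2310.2 to 2548 FPKM in WT. Wt1, at a mean of 139.7 FPKM, is in both the granulosa cell and the surface epithelium list. Of other tested markers, 10 of 10 endothelial, 8 of 9 stroma and theca and 5 of 6 erythroid were higher, and 5 of 5 smooth muscle lower. Each of these tested markers was above 0 in every library. The interferon-induced factor gene Irf7 measured 70.2, 3.44 and 8.31 FPKM in the cKO libraries, against 1.05, 1.22 and 1.65 FPKM in the WT libraries, and the granulosa cell factor gene Foxl2 measured 132, 124 and 105 FPKM in the cKO libraries, against 138, 224 and 204 FPKM in the WT libraries. Another granulosa cell gene, Amh, measured 142, 135 and 103 FPKM in the cKO libraries, against 220.4, 146 and 129 FPKM in the WT libraries. For Amh the groups overlapped. Scores are the mean over a list of log2(FPKM + 1) minus the WT mean. The part of these differences in the results below was not tested.

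None of the 33 genes passed the adjusted threshold in cKO against WT. Their log2 fold changes, cKO minus WT on the log2(FPKM + 1) scale, ran from -0.28 for Ern1 to 0.55 for Cebpb, with 16 above and 17 below 0 and a median of -0.02, against a median of 0.00 over all genes tested. With each library rescaled to a common total, 11 were above and 22 below 0 and their median was -0.08, while the median of all genes was -0.0565. With limma's moderated test adjusted over all genes tested, 0 of the 33 were called, and the smallest adjusted p among them was 0.713. Of all genes tested, 0.0204% were called, 0.00680% as higher and 0.0136% as lower in cKO. Where p below 0.05 is taken without adjustment, the 33 held 1 gene higher, Cebpb (3.64% of all genes tested), and 0 lower (2.70%, and 6.34% in either direction). The cKO and WT libraries did not overlap for 3 genes, Cebpb, Herpud1 and Chac1, each higher in cKO (6.37% of all genes tested), and for 0 genes lower in cKO (5.89% of all genes tested). The counts of 1 and of 3 genes among 33 lie near these background shares. For 26 of the 33 genes the 95% confidence interval of the fold change lay wholly within a 1.5-fold difference in either direction, as it did for 72.4% of all genes tested.

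**Figure D1:**
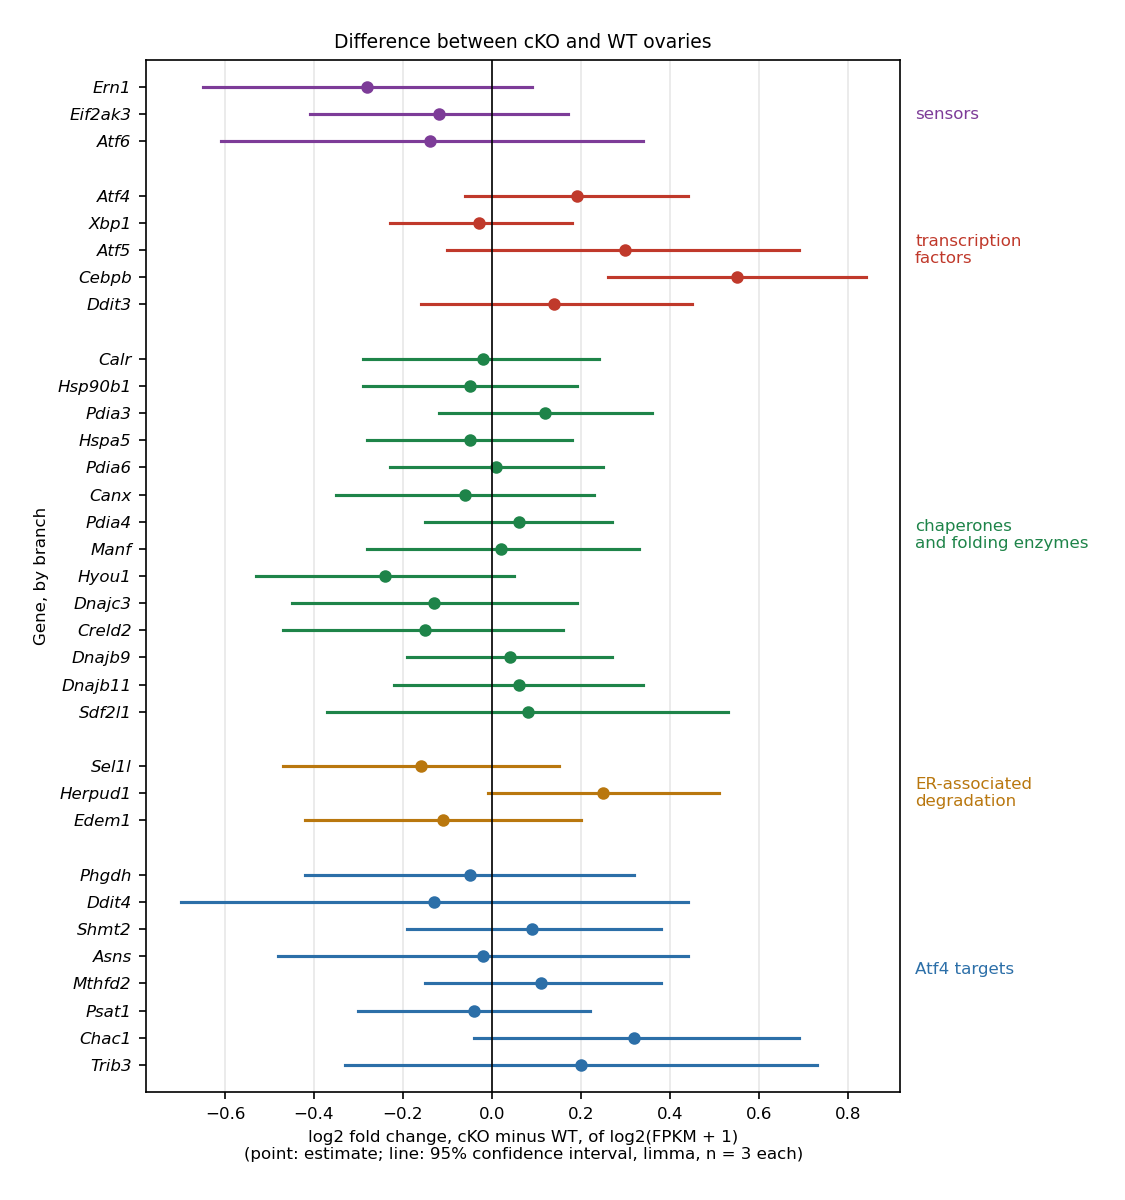
Log2 fold change of each of the 33 genes (x axis, cKO minus WT of log2(FPKM + 1)), by branch (y axis), with points for the limma estimate and lines for its 95% confidence interval over 3 cKO and 3 WT libraries. The interval of Cebpb, 0.26 to 0.84, is the only one here that does not include 0, before any adjustment for the number of genes tested.

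The genes spanned a wide range of levels in the ovary. The most abundant was Calr, which encodes the ER lectin chaperone calreticulin, at 336 ± 35.2 FPKM in cKO and 341 ± 8.28 FPKM in WT (SD, n = 3 each). It was followed by Hsp90b1, Pdia3, Hspa5, Pdia6 and Canx, and the mean level of Canx, the lowest of these, was at the percentile 97.1 of the genes tested. At the other end stood the Atf4 targets Trib3 and Chac1, on 17 to 61 and 24 to 52 reads per library. Neighbours in this order often overlapped, such as Hsp90b1 (227 to 261 FPKM in cKO and 243 to 267 FPKM in WT) and Pdia3 (221 to 244 FPKM in cKO and 199 to 228 FPKM in WT).

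**Figure D2:**
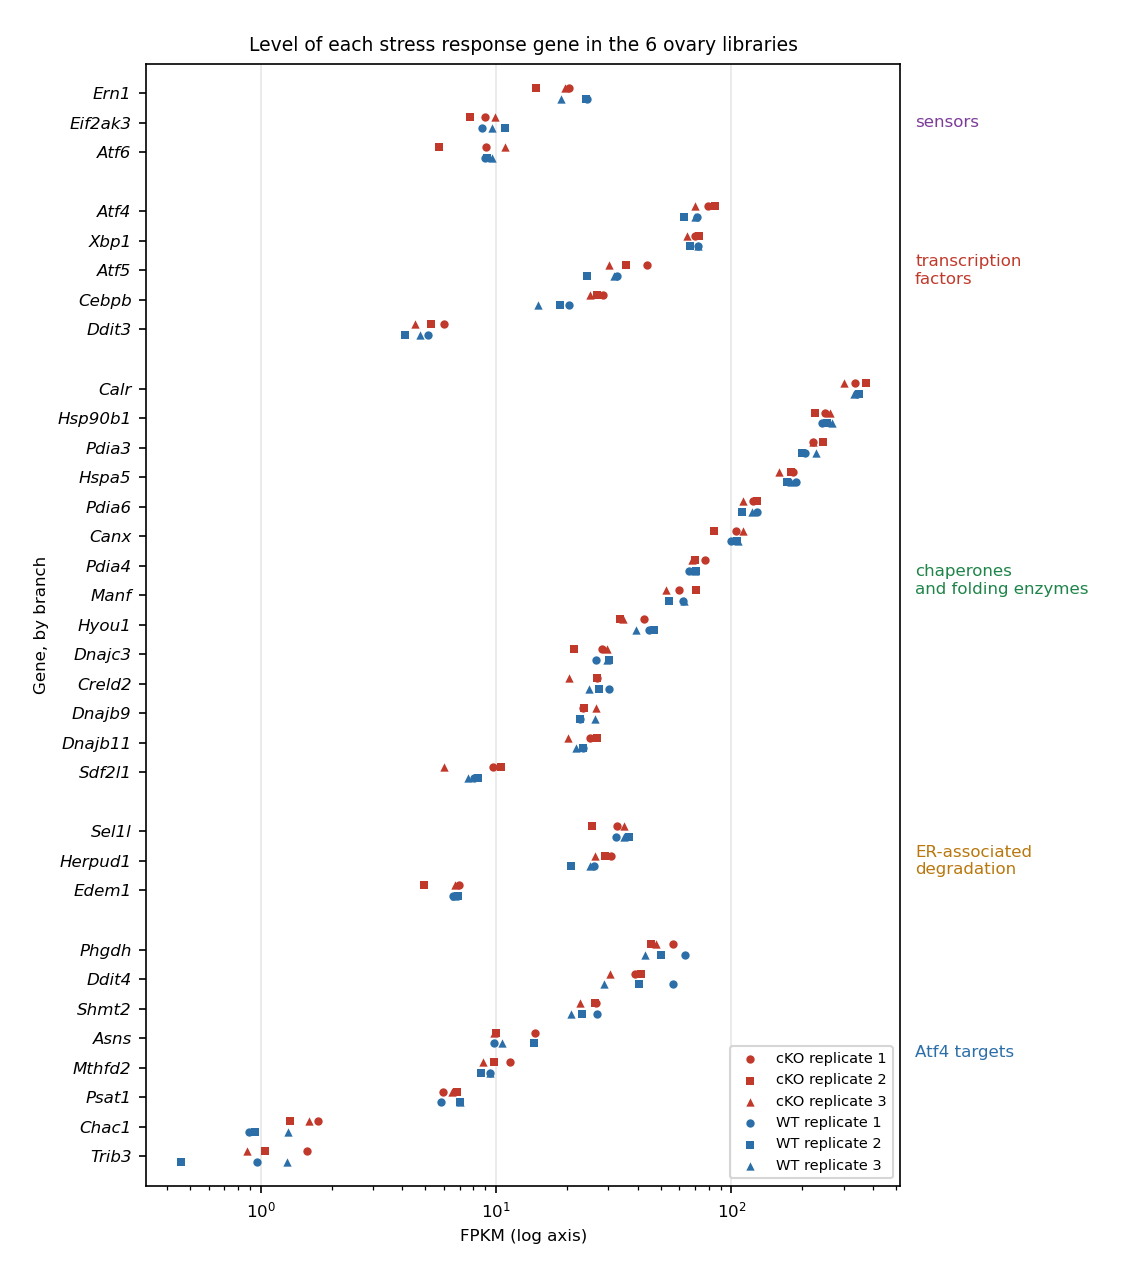
FPKM of each gene in each library (x axis, log scale), grouped by branch and ordered by mean level within it (y axis), with cKO in red above WT in blue and a marker for each replicate. Levels run from about 1 FPKM for Trib3 and Chac1 to a mean of 338 FPKM for Calr, and the red and blue points overlap for all genes except Cebpb, Herpud1 and Chac1.

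All 3 sensors had a mean below that of WT in cKO, with overlapping groups. Ern1 (chr11:106285474-106378701, minus strand, GRCm39) measured 20.5, 14.8 and 19.7 FPKM in the cKO libraries, against 24.3, 24.2 and 18.8 FPKM in the WT libraries. WT replicate 3 lay within the cKO range, and the log2 fold change was -0.28 (SE 0.156, limma adjusted p = 0.803). Atf6 (chr1:170532026-170696414, minus strand) measured 9.10, 5.74 and 10.9 FPKM in the cKO libraries, against 8.98, 9.18 and 9.62 FPKM in the WT libraries. Its cKO libraries held both the lowest and the highest value (log2 fold change -0.14, SE 0.201, limma adjusted p = 0.902). Eif2ak3 (chr6:70821468-70882225, plus strand) measured 8.95, 7.74 and 9.93 FPKM in the cKO libraries, against 8.71, 10.9 and 9.56 FPKM in the WT libraries (log2 fold change -0.12, SE 0.124, limma adjusted p = 0.871). In each sensor cKO replicate 2 was the lowest of the 6 libraries. Without it the log2 fold change was 0.10 for Atf6, -0.14 for Ern1 and -0.04 for Eif2ak3. Over all fits that left out 1 library, the log2 fold change ran from -0.31 to 0.10, -0.40 to -0.14 and -0.20 to -0.04 in these genes. The smallest unadjusted p of a sensor in these fits was 0.0435, for Ern1 without WT replicate 3 (limma adjusted p = 0.804).

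Among the transcription factors, Cebpb had the smallest p of the 33 genes. It encodes C/EBPβ, which pairs with ATF4 and other leucine zipper proteins, is required in the mouse ovary for ovulation and is also expressed in macrophages. Cebpb (chr2:167530835-167532352, plus strand) measured 28.4, 26.8 and 25.1 FPKM in the cKO libraries, against 20.4, 18.7 and 15.1 FPKM in the WT libraries. Every cKO library was thus above every WT library, and the log2 fold change was 0.55 (SE 0.122, unadjusted p = 0.00277, limma adjusted p = 0.713). It stayed between 0.43 and 0.64 in all 19 alternatives, each with an unadjusted p of 0.0122 or less. The macrophage and leukocyte score was 1.84, 0.49 and 1.20 in cKO replicates 1, 2 and 3 and 0.02, -0.22 and 0.19 in WT, while Cebpb lay between 25.1 and 28.4 FPKM in the 3 cKO libraries. That score's part in the level of Cebpb was not tested.

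Atf4, Atf5 and Ddit3 overlapped between the groups. Atf4 (chr15:80139385-80141746, plus strand) measured 79.1, 85.3 and 69.8 FPKM in the cKO libraries, against 71.5, 62.6 and 70.3 FPKM in the WT libraries. cKO replicates 1 and 2 were above all WT libraries and cKO replicate 3 lay among them (log2 fold change 0.19, SE 0.107, limma adjusted p = 0.803). Atf5, which encodes a related factor that also acts in the mitochondrial stress response, measured 43.9, 35.7 and 30.2 FPKM in the cKO libraries, against 32.5, 24.3 and 31.6 FPKM in the WT libraries, with the same order of cKO libraries against WT (log2 fold change 0.30, SE 0.166, limma adjusted p = 0.803). Atf5 shares 571 bases of its span with Nup62 on the other strand (24.4 FPKM over the 6 libraries), and the strandedness of the counting is not given, so reads from that stretch cannot be told apart. Ddit3 (chr10:127126662-127132160, plus strand) was low in all libraries, at 5.99, 5.30 and 4.52 FPKM in the cKO libraries, against 5.12, 4.11 and 4.77 FPKM in the WT libraries, on 190 to 288 reads. Its log2 fold change was 0.14 (SE 0.129, limma adjusted p = 0.859), with a 95% confidence interval of -0.16 to 0.45. Its ends overlap Mars1 and Mbd6 by 71 and 77 bases on the other strand.

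Xbp1 was close to its WT level. It measured 69.9, 72.7 and 64.5 FPKM in the cKO libraries, against 72.2, 66.6 and 72.2 FPKM in the WT libraries (chr11:5470641-5475993, plus strand). Its log2 fold change was -0.03 (SE 0.0874, limma adjusted p = 0.959), with an interval of -0.23 to 0.18. The values count all Xbp1 mRNA, spliced and unspliced.

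The mean score of the 5 transcription factors was 0.34, 0.27 and 0.08 in cKO replicates 1, 2 and 3 and 0.11, -0.11 and 0.00 in WT. The lowest cKO score thus lay below the highest WT score. Without cKO replicate 3, Atf4, Atf5, Herpud1 and the chaperone gene Sdf2l1 had an unadjusted p under 0.05 beside Cebpb, all 5 higher in cKO, and the limma adjusted p was 0.656 for each. Sdf2l1 is named here because of that value. Each of the other fits that left out 1 library had 1 or 2 of the 33 genes higher at that unadjusted level. The share of all genes at that level was not counted in any fit that left out 1 library. The 5 genes, and the counts of the other fits, thus have no background beside them.

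**Figure D3:**
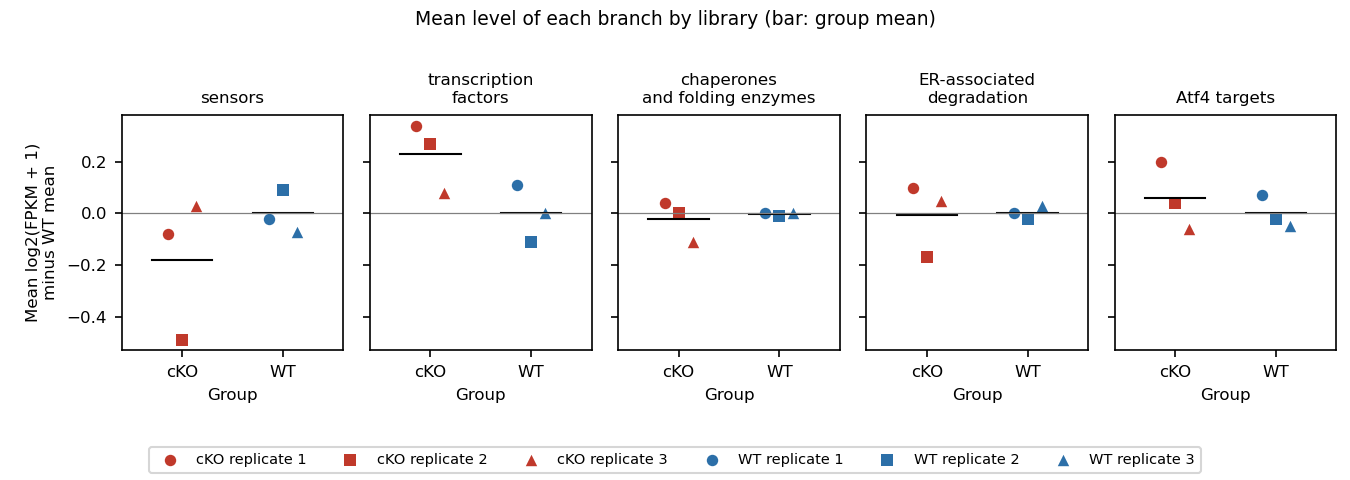
Mean over the genes of each branch of log2(FPKM + 1) minus the WT mean (y axis) for each cKO and WT library (x axis), with a bar for the group mean. Transcription factors have the highest cKO mean, 0.23, and the low cKO mean of the sensors, -0.18, comes with a score of -0.49 in cKO replicate 2.

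The chaperones and folding enzymes formed the largest and most abundant branch, and their groups overlapped in all 14 genes. Log2 fold changes ran from -0.24 to 0.12 with a median of -0.01, 7 above and 7 below 0. With libraries rescaled to a common total, 2 of the 14 were above 0, beside 36.5% of all genes tested. With quantile normalization 4 of the 14 were, beside 46.2% of all genes tested. With the gene-length trend removed from each library 3 of the 14 were, beside 50.4% of all genes tested. That alternative was added after the data were seen. The summed level of the 14 was 1510.3, 1518 and 1425 FPKM in cKO and 1489.7, 1474 and 1516 FPKM in WT.

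Hspa5 encodes BiP, the ER chaperone whose mRNA is the usual readout of the response. It measured 183, 179 and 159.7 FPKM in the cKO libraries, against 188, 173 and 179 FPKM in the WT libraries (chr2:34662102-34666541, plus strand, GRCm39), on 7666 to 9041 reads. Its span overlaps Rabepk, at 3.65 FPKM, on the other strand. The lowest value was cKO replicate 3 and the highest WT replicate 1, with the other libraries close together. The fold change, cKO over WT on the FPKM + 1 scale, had a 95% confidence interval of 0.824 to 1.13 (log2 fold change -0.05, SE 0.0971, limma adjusted p = 0.927). Hsp90b1, which encodes the ER HSP90 protein GRP94, measured 250.1, 227 and 261 FPKM in the cKO libraries, against 243, 255 and 267 FPKM in the WT libraries. Its interval was 0.816 to 1.14-fold, with cKO replicate 2 the lowest library (log2 fold change -0.05, SE 0.101, limma adjusted p = 0.926). Calr had an interval of 0.817 to 1.18-fold.

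Hyou1, which encodes the ER nucleotide exchange factor GRP170, had the lowest log2 fold change among the chaperones. It measured 42.6, 33.6 and 34.5 FPKM in the cKO libraries, against 44.7, 47.0 and 39.2 FPKM in the WT libraries, with cKO replicate 1 inside the WT range (log2 fold change -0.24, SE 0.121, limma adjusted p = 0.795). Without cKO replicate 1 it was -0.35 with an unadjusted p of 0.0254. Creld2, an ER-resident protein gene induced by ER stress, measured 26.8, 26.9 and 20.5 FPKM in the cKO libraries, against 30.3, 27.3 and 24.8 FPKM in the WT libraries (log2 fold change -0.15, SE 0.133, limma adjusted p = 0.855). Dnajc3, which encodes the BiP co-chaperone P58IPK, measured 28.2, 21.4 and 29.6 FPKM in the cKO libraries, against 26.6, 30.1 and 29.7 FPKM in the WT libraries (log2 fold change -0.13, SE 0.134, limma adjusted p = 0.872). Without cKO replicate 2 the log2 fold change of Dnajc3 was 0.01.

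Pdia3, which encodes the disulfide isomerase ERp57 that works with calreticulin and calnexin, had the highest log2 fold change of the branch. It measured 222, 244 and 221 FPKM in the cKO libraries, against 205, 199 and 228 FPKM in the WT libraries (log2 fold change 0.12, SE 0.102, limma adjusted p = 0.853). WT replicate 3 lay within the cKO range. Sdf2l1, a BiP cofactor gene, averaged 8.75 ± 2.42 FPKM in cKO and 8.01 ± 0.413 FPKM in WT (SD, n = 3 each). The other members, Dnajb9, Dnajb11, Manf, Canx, Pdia4 and Pdia6, had log2 fold changes between -0.06 and 0.06.

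The 7 genes with an ERSE in the promoter window, whose sequences are given above for Hspa5, Hsp90b1 and Pdia6, had log2 fold changes of -0.15 to 0.01 with a median of -0.05. Their groups overlapped in every case. The 4 genes with the amino acid response core had log2 fold changes of -0.02 to 0.32 with a median of 0.23. In Chac1 and Herpud1 the groups did not overlap, with cKO higher (6.37% of all genes tested). The margins were narrow, at 1.33 against 1.31 FPKM for Chac1 and 26.3 against 26.1 FPKM for Herpud1. Chac1 and Trib3 rest on 24 to 52 and 17 to 61 reads a library. These are descriptions of 7 and 4 genes, with no test between them.

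In ER-associated degradation, Herpud1 had a log2 fold change above 0, and Sel1l and Edem1 below 0. Herpud1 encodes an ER membrane protein that helps to assemble the degradation complex and is induced by both responses. It measured 30.7, 29.0 and 26.3 FPKM in the cKO libraries, against 26.1, 20.9 and 25.0 FPKM in the WT libraries (chr8:95113057-95121999, plus strand). The groups did not overlap, though the lowest cKO library, at 26.3 FPKM, was close to the highest WT library, at 26.1 FPKM (log2 fold change 0.25, SE 0.112, unadjusted p = 0.0607, limma adjusted p = 0.773). Sel1l, which encodes the adaptor of the HRD1 ubiquitin ligase, measured 32.5, 25.6 and 35.1 FPKM in the cKO libraries, against 32.2, 36.8 and 34.9 FPKM in the WT libraries (log2 fold change -0.16, SE 0.129, limma adjusted p = 0.845). Edem1, which encodes a lectin that hands over misfolded glycoproteins, averaged 6.21 ± 1.10 FPKM in cKO and 6.70 ± 0.163 FPKM in WT (SD, n = 3 each). In both, cKO replicate 2 was the lowest library.

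Of the 8 Atf4 targets, 4 had a log2 fold change above 0 and 4 below, with a median of 0.04. Chac1, which encodes a glutathione-degrading enzyme induced through ATF4, measured 1.75, 1.33 and 1.60 FPKM in the cKO libraries, against 0.888, 0.947 and 1.31 FPKM in the WT libraries. The groups did not overlap, though cKO replicate 2, at 1.33 FPKM, was close to WT replicate 3, at 1.31 FPKM, and a library held 24 to 52 reads (log2 fold change 0.32, SE 0.155, unadjusted p = 0.0752, limma adjusted p = 0.781). On the log2(FPKM + 1) scale the change of so low a gene is understated. Trib3, a pseudokinase gene induced by ATF4 and CHOP, averaged 1.16 ± 0.364 FPKM in cKO and 0.904 ± 0.422 FPKM in WT (SD, n = 3 each), with overlapping groups.

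The amino acid and one-carbon genes of this branch lay on both sides of 0. Asns, which encodes asparagine synthetase, averaged 11.5 ± 2.75 FPKM in cKO and 11.6 ± 2.54 FPKM in WT (log2 fold change -0.02, SE 0.195, limma adjusted p = 0.989). Mthfd2, a mitochondrial folate enzyme gene, measured 11.4, 9.81 and 8.82 FPKM in the cKO libraries, against 9.45, 8.60 and 9.38 FPKM in the WT libraries (log2 fold change 0.11, SE 0.111, limma adjusted p = 0.865). Among other genes, the serine synthesis genes Phgdh and Psat1 had log2 fold changes of -0.05 and -0.04, and Shmt2, the mitochondrial serine hydroxymethyltransferase gene, had 0.09. Ddit4, an inhibitor of mTORC1 signalling, averaged 37.0 ± 5.72 FPKM in cKO and 41.8 ± 13.9 FPKM in WT (SD, n = 3 each). Its 95% confidence interval was the widest of the 33 on the log2(FPKM + 1) scale, -0.70 to 0.44. With a pseudocount of 0.1 the interval of Trib3 was wider, -0.66 to 1.44, against -0.72 to 0.45 for Ddit4.

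A measure that varied with several of these values was gene length. The length split used here, at 4000 bases, was chosen after the values were seen. Of the 9 members of at least 4000 bases, which include all 3 sensors, cKO replicate 2 was the lowest of the 6 libraries in 8, and WT replicate 2 the highest in 5. Each library's deviation from the other 5 had a Spearman correlation with gene length, over 12729 coding genes, of -0.17, -0.44 and 0.19 in cKO and 0.06, 0.52 and -0.04 in WT. Over the 33 members it was -0.27, -0.69 and 0.37 in cKO and -0.06, 0.57 and 0.43 in WT. These are correlations across genes of a library, which are not independent. With the length trend removed from each library, an alternative added after the data were seen, the log2 fold change was -0.22 for Ern1, -0.07 for Atf6, 0.13 for Atf4, 0.20 for Herpud1 and 0.48 for Cebpb. The part of length in the differences between groups was not tested further.

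**Figure D4:**
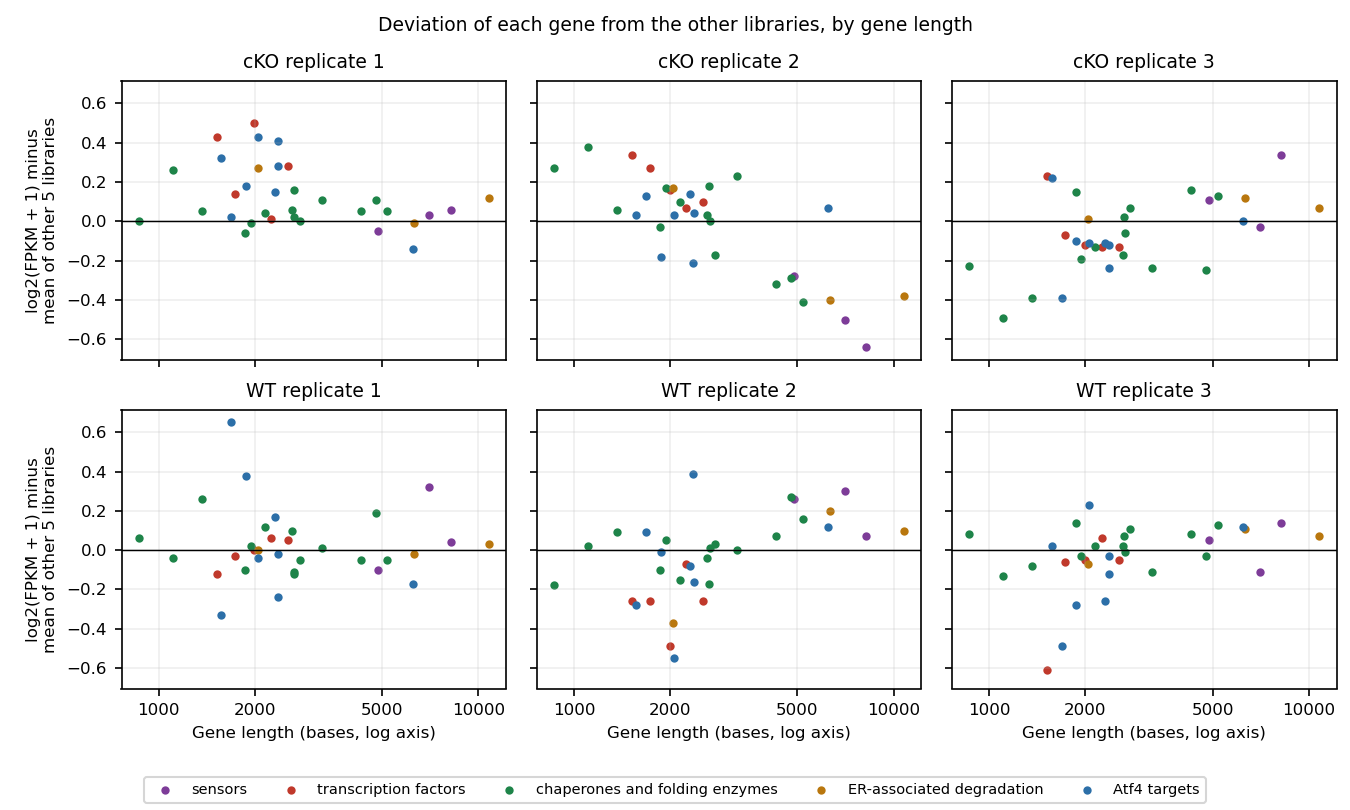
Deviation of each gene in a library from the mean of the other 5 libraries on the log2(FPKM + 1) scale (y axis) against gene length in bases (x axis, log scale), with a panel for each cKO and WT library. In cKO replicate 2 longer members lie lower (Spearman -0.69), and in WT replicate 2 they lie higher (0.57).

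Further genes of the same pathways were counted in 9 lists of 119 genes, of which 113 were tested. None of the 113 was called, and the smallest limma adjusted p was 0.743. Of the 113, 87 had a log2 fold change above 0 and 26 below, with a median of 0.06, against 50.0% above 0 over all genes tested. With each library rescaled to a common total, which moved the median of all genes to -0.0565 and left 36.5% of them above 0, 57 of the 113 were above 0. Where p below 0.05 is taken without adjustment, 7 of the 113 were higher and 3 lower in cKO (3.64% and 2.70% of all genes tested). These counts were 3 and 3 with a common total and 3 and 0 with a replicate block, where the shares of all genes were not counted. The groups did not overlap in 12 genes higher and 5 lower in cKO (6.37% and 5.89% of all genes tested).

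Of the 6 eIF2 kinase and phosphatase genes, the lowest p was that of Eif2ak2, which encodes the kinase PKR, sensor of double-stranded RNA and itself an interferon-induced gene. Eif2ak2 measured 13.5, 5.91 and 6.69 FPKM in the cKO libraries, against 4.57, 4.74 and 5.12 FPKM in the WT libraries. The groups did not overlap, and cKO replicate 1, the library with the highest interferon marker score, was far above the others (log2 fold change 0.66, SE 0.269, unadjusted p = 0.0436, limma adjusted p = 0.773). Over the fits that left out 1 library, its log2 fold change ran from 0.33 to 0.87. The part of the interferon markers in this value was not tested.

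Among 18 further genes of the integrated stress response, Sesn2, a leucine-sensing inhibitor of mTORC1 induced by stress, measured 6.70, 5.48 and 5.60 FPKM in the cKO libraries, against 4.76, 4.33 and 4.01 FPKM in the WT libraries. Every cKO library was above every WT library (log2 fold change 0.37, SE 0.115, unadjusted p = 0.0152, limma adjusted p = 0.743). Psph, the last enzyme of serine synthesis, was lower in cKO, at 2.59, 2.31 and 2.15 FPKM in the cKO libraries, against 2.90, 2.93 and 3.46 FPKM in the WT libraries (log2 fold change -0.29, unadjusted p = 0.0479, limma adjusted p = 0.773).

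In the list of 13 aminoacyl-tRNA synthetase genes, which also holds the tRNA exportin gene Xpot, 11 had a log2 fold change above 0, and 8 did after rescaling to a common total. The groups did not overlap in 5 (Aars, Sars, Tars, Yars and Xpot), each higher in cKO (6.37% of all genes tested), of which Tars and Xpot are named for their values. Sars measured 32.8, 35.1 and 31.2 FPKM in the cKO libraries, against 28.2, 28.3 and 29.2 FPKM in the WT libraries (log2 fold change 0.20, SE 0.0808, unadjusted p = 0.0412, limma adjusted p = 0.773). Over the list, the median log2 fold change was 0.09.

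Among ER folding, translocon and degradation genes, Uggt1, the glycoprotein folding sensor, measured 12.5, 11.7 and 12.4 FPKM in the cKO libraries, against 13.4, 15.7 and 14.4 FPKM in the WT libraries, without overlap (log2 fold change -0.23, unadjusted p = 0.0394, limma adjusted p = 0.771). Derl3, which encodes a membrane protein of ER-associated degradation, averaged 45.5 ± 8.83 FPKM in cKO and 34.6 ± 2.43 FPKM in WT (SD, n = 3 each), with overlapping groups (log2 fold change 0.37, limma adjusted p = 0.773). In the cytosolic heat shock list, 10 of 12 genes were above 0 and 2 below, while 6 were above and 6 below with a common total per library, and also without cKO replicate 1, and 7 were above and 5 below with quantile normalization. Hspb1, a small heat shock protein gene, averaged 36.4 ± 10.8 FPKM in cKO and 22.5 ± 5.49 FPKM in WT (log2 fold change 0.66, limma adjusted p = 0.768), whereas Hsph1, an HSP110 gene, averaged 33.1 ± 3.54 FPKM in cKO and 39.4 ± 1.12 FPKM in WT (log2 fold change -0.25, limma adjusted p = 0.771). Neither passed the adjusted threshold.

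**Figure D5:**
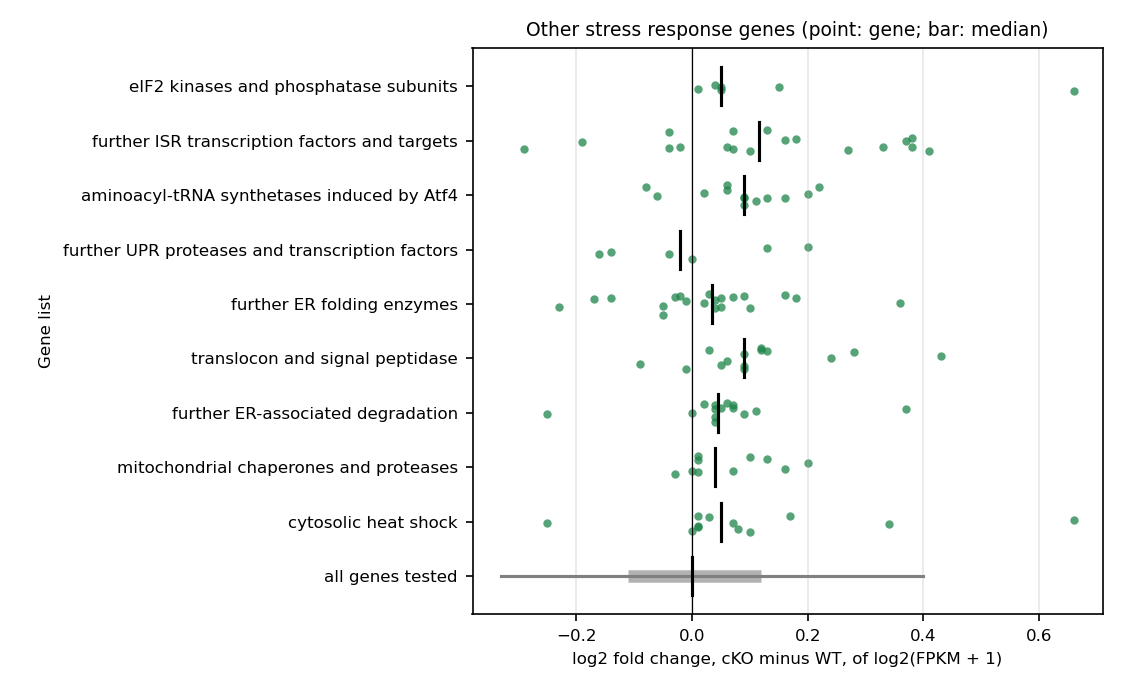
Log2 fold change (x axis, cKO minus WT of log2(FPKM + 1)) of the 113 tested genes in 9 further lists (y axis), with a point for each gene and a bar for the list median. The bottom row gives all genes tested, with a thin line for the 5th to 95th percentile (-0.33 to 0.40) and a thick line for the 25th to 75th (-0.11 to 0.12), and list medians lie between -0.02 and 0.12.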

How the data were processed

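RNA was sequenced from ovaries at 9 dpp, with 3 cKO and 3 WT libraries grouped by their titles. The authors deposited FPKM values per gene. HISAT2 2.0.5 and the builds mm10 and GRCm39 are named, per the submitters' processing notes, and chromosome accessions in the table are those of GRCm39. The sources used here do not give the counter, annotation release or strandedness. FPKM multiplied by gene length gave whole reads within 0.01 of a read for all values, at 16.8 to 18.7 M reads a library. The library totals that the FPKM values imply were 17.2 to 19.2 M, which differ from the reads in some libraries. In all 6 libraries they were proportional to median-of-ratios size factors (the median over genes of a library's reads against the geometric mean of the libraries). The values as deposited thus carried that scaling, and rescaling to a common total replaced it. Among the tests, the recovered reads entered only the alternative with limma-voom.

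Values were tested as log2(FPKM + 1) with limma 3.58.1 in R 4.3.3 (a moderated test with a prior trend), two-sided, on genes averaging 1 FPKM or more, with Benjamini-Hochberg adjustment over all 14714 genes tested and a threshold of 0.05. The code was tested on simulated data. Alternatives changed the pseudocount, filter, scaling, prior, block, gene set and libraries. Described in full were 10 fixed members and those with the smallest p-values. The members and lists were chosen with earlier results of these data known.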

Additional observations from a re-analysis of the deposited data

How the results depend on the processing

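No member was called in any alternative, and the members' median log2 fold change ran from -0.08 to 0.05 (-0.02 as reported). The members' mean score in each library, a different measure, had an SD of 0.06 between replicates, pooled over the groups. Over all genes tested, the 1 gene called higher in cKO became 0 with a pseudocount of 0.1 or 0.5, a filter at a mean of 5 FPKM, no filter, quantile normalization, protein-coding genes only, limma-voom on recovered reads and removal of the length trend, an alternative chosen after seeing the data. The 2 genes called lower in cKO became 0 with no filter and with limma-voom, and 1 with protein-coding genes only and with the length trend removed. With the replicate block, 0 genes were called higher and 0 lower. Deviations from the group mean correlated at 0.18, -0.08 and -0.06 between samples of the same number, and at -0.23 to 0.23 between others. With so few samples in a group, these values cannot decide whether the numbers pair the samples. Leaving out 1 library gave 0 to 1 genes called higher, 0 to 1 called lower, 1 to 5 members higher and 0 to 1 members lower at an unadjusted p under 0.05, and the highest median, 0.05, came without cKO replicate 3. With a prior without trend, 2 members, Cebpb and Chac1, were higher at that level. The share of all genes at that level was not counted in these alternatives, so these member counts have no background beside them. Of the 33 members, 18 changed sign in at least 1 of 19 alternatives (18 for genes that the filter at 5 FPKM left out) and 15 did not; of 31 other genes recomputed, 2 did (Eif2s1 and Ppp1r15a). Signs turned for Eif2s1 with a common total (-0.01) and, when 1 library was left out, for Atf6 (-0.31 to 0.10), Hsp90b1 (-0.10 to 0.00) and Dnajc3 (-0.22 to 0.01), whose highest values came without cKO replicate 2, for Xbp1 (-0.07 to 0.02) and Hspa5 (-0.09 to 0.01), highest without cKO replicate 3, and for Ppp1r15a (-0.01 to 0.32), lowest without WT replicate 3. The other members whose sign turned were Pdia6, Manf, Dnajb9, Sdf2l1, Asns, Psat1, Dnajb11, Pdia4, Phgdh, Calr, Canx, Edem1 and Ddit4. With 1 library left out, the log2 fold change ran from -0.37 to 0.10 for Ddit4, from -0.20 to 0.14 for Asns, from -0.18 to 0.09 for Phgdh and from -0.05 to 0.30 for Sdf2l1. The cause was not tested. The filter at 5 FPKM left out 3 members (Ddit3, Chac1 and Trib3) and 13 of the 113 genes of the further lists, Psph among them. Depth limits Trib3 and Chac1 most, with 17 to 61 and 24 to 52 reads a library.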
